A study of Equus caballus with 25 samples.

Results

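The levels of 5 genes of the actin and myosin cytoskeleton were followed through the oestrous cycle in the endometrium, the lining of the uterus, of the mare. They are MYH7, a heavy chain of striated-muscle myosin, RND3, a small GTP-binding protein, TAGLN, the actin-binding protein transgelin, S100A6, a calcium-binding protein, and GSN, the actin-severing protein gelsolin. They were chosen by their differences in level between days of the cycle in an earlier analysis of these same arrays, so their levels and the differences between days are given as a description. No p is given for these differences, and calls are counted further on only to stand beside the share of all probes. Every probe whose RefSeq transcript belongs to 1 of these 5 genes was taken. That gave 12 of the 43603 probes on the array and 5 of the 620 genes that could be named.

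The series measured RNA on one-colour Agilent arrays in 25 transcervical biopsies, 1 from each of 5 mares at each of 5 days. The animals were normally cycling Bavarian Warmblood mares, with ovulation followed daily by palpation and ultrasound. Each biopsy is a mixture of epithelium, stroma, vessels and immune cells. Per the labels' protocols, biopsies came from different cycles, and those from the same cycle were taken at least 9 days apart.

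Day 0, the day of ovulation, is called oestrus, shortly after ovulation, in the labels. Day 3 is the early, day 8 the mid and day 12 the late luteal phase, and day 16 is the start of the next ovulatory phase. Steps of the cycle were compared as day 3 with day 0, day 8 with day 3, day 12 with day 8, day 16 with day 12, and day 0 with day 16.

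Actin filaments give a cell its shape, and myosin motors pull on them. Proteins that bind, cut or cap the filaments decide how long and how stable they are. Calcium acts on the system through calcium-binding proteins. In the uterus, the lining grows and is remodelled under oestrogen around ovulation and becomes secretory under progesterone from the corpus luteum.

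Signal was present for all 5 genes on every array. The probe with the highest mean signal stands for each gene and was well above background on 25 of 25 arrays in each case. Levels are log2 values of the deposited processed signal minus the 75th percentile of the same array, so that 0 is the level of a probe at that percentile and a difference of 1 is 2-fold. They compare arrays for 1 probe and do not compare 1 gene with another. Before scaling, the array percentiles spanned 698 to 3701, and day 0 arrays were the dimmest, with a median of 895 against 2001 on day 16. Between 70.3% and 88.1% of the probes were well above background on an array, and no spot was saturated. The epithelial marker ESRP1 and the stromal markers LUM and DCN, which fit the labelled tissue, were well above background on 25 of 25 arrays. In a bulk biopsy, fewer cells of a type and less RNA per cell cannot be told apart.

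MYH7, the slow or beta cardiac myosin heavy chain, drives contraction in heart and in slow skeletal muscle fibres. Its 3 probes (A_69_P005291, A_69_P005292 and A_69_P005293, all for transcript NM_001081758) ran almost together, with a lowest correlation of 0.999 over the 25 arrays. The gene table also lists MyHC-alpha as a name of this gene, and whether these probes tell MYH7 from its close relative MYH6 was not tested. The processed signal of the first probe ran from 531 to 11422. At day 0, MYH7 stood at 2.20, 1.73, 1.39, 1.30 and 2.93 in mares 1 to 5. At day 3, the same mares had −0.49, 0.24, 0.38, 1.85 and −0.20. The mid luteal values at day 8 were −0.82, −0.99, −1.001, −0.67 and −0.71. Day 0 thus held the high values, day 3 was spread out with mare 4 still among the day 0 levels, and on day 8 the 5 mares lay close together. At day 12, the levels were −1.88, −0.34, −1.35, −0.95 and −0.61. At day 16, they were 1.24, 0.65, 1.48, 0.94 and 0.25. All 5 mares were above every day 12 value on day 16.

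The mean MYH7 levels were 1.91 ± 0.67 on day 0, 0.35 ± 0.90 on day 3, −0.84 ± 0.15 on day 8, −1.03 ± 0.61 on day 12 and 0.91 ± 0.48 on day 16 (SD, n = 5 each). The highest and the lowest day mean were 2.94 apart on the log2 scale, or 7.66-fold. From high to low the days stood in the order 0, 16, 3, 8, 12. Of the neighbours in that order, days 3 and 8 did not overlap, and the other neighbours did. Day 3 was 2.94-fold below day 0, a log2 difference of −1.56 ± 0.37 (moderated SE), with 4 of 5 mares lower and mare 4 higher. Day 8 was a further 2.28-fold below day 3 (−1.19 ± 0.37), with 5 of 5 mares lower. Between day 12 and day 8 the difference was −0.19 ± 0.37, within its error. Day 16 was 3.83-fold above day 12 (1.94 ± 0.37), with 5 of 5 mares higher. Day 0 was above day 16 by 0.999 ± 0.37, with 4 of 5 mares higher and the groups overlapping.

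The only other myosin heavy chains with a named probe were those of fast skeletal muscle, MYH1, MYH2 and MYH4. Their brightest probes were well above background on 1, 3 and 4 of 25 arrays, and none was tested. The troponin TNNI3, the inhibitory subunit of the cardiac troponin complex, was above background on 25 of 25 arrays. The tropomyosin TPM3, which is also on the list of sarcomere genes, is described with the other cytoskeletal genes further on. The rest of that list, MYH6 included, had no named probe and was not analysed here.

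**Figure D1:**
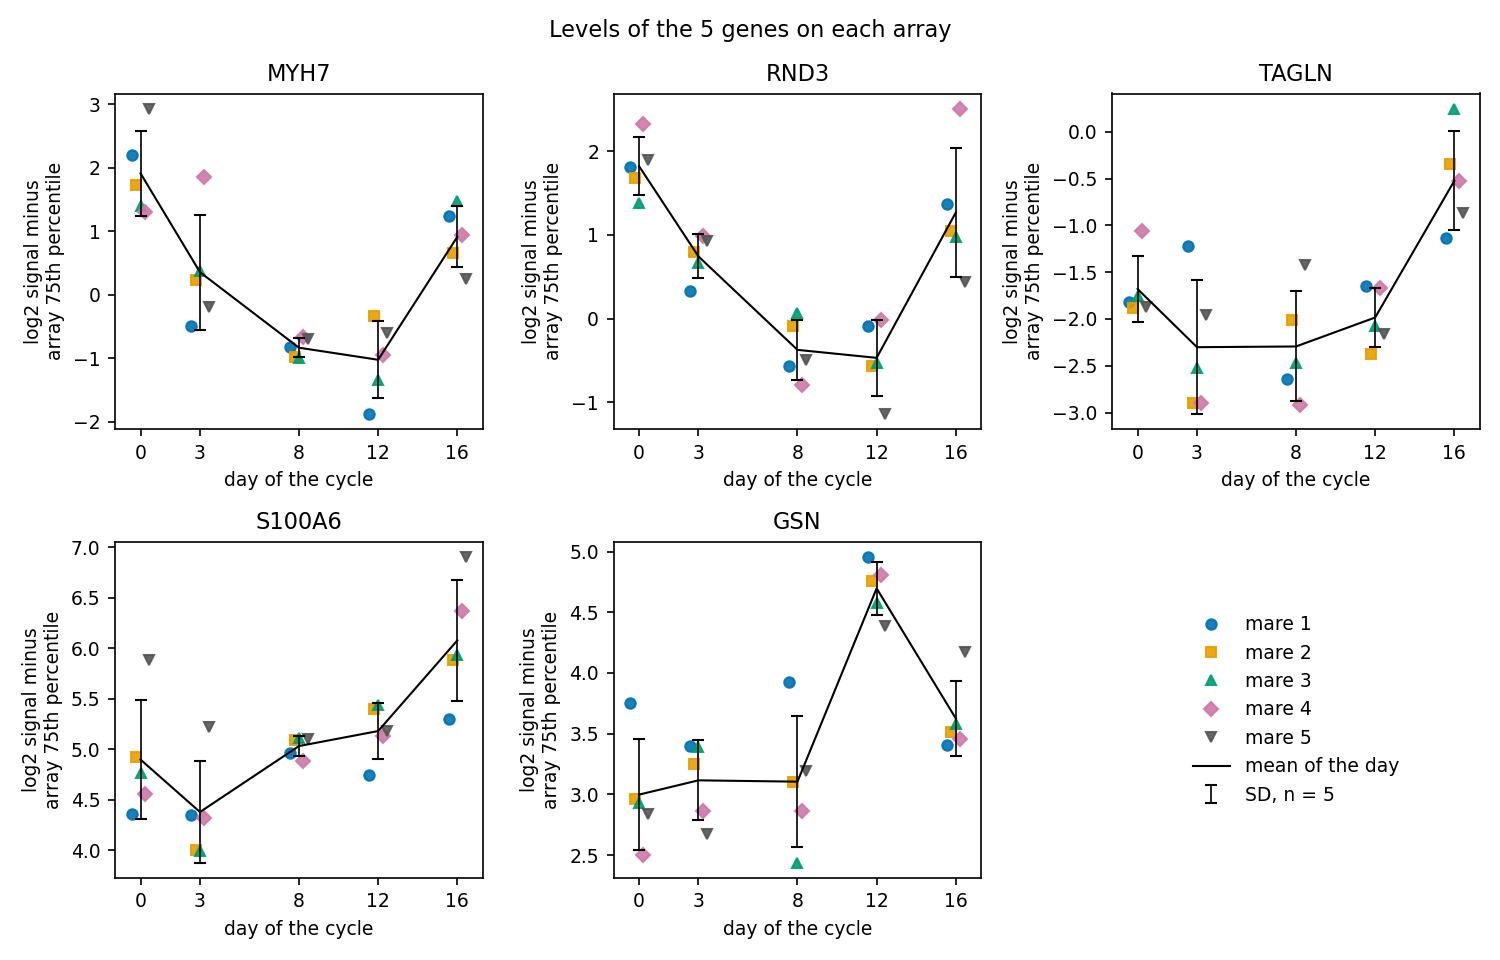
Level of MYH7, RND3, TAGLN, S100A6 and GSN (log2 signal minus the 75th percentile of the array) against the day of the cycle, with 1 point per mare and day, the mean of the day as a line and bars of 1 SD over 5 mares. MYH7 and RND3 are high on days 0 and 16 and low on days 8 and 12, TAGLN and S100A6 have their highest mean on day 16, and GSN has its highest on day 12.

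RND3 is a small GTP-binding protein that is known to counter the contraction of actomyosin fibres. It had 1 probe, A_69_P117016, for transcript XM_001488213, and a processed signal of 897 to 21082. At day 0, RND3 stood at 1.81, 1.68, 1.38, 2.33 and 1.90 in mares 1 to 5. By day 3, the 5 levels were 0.33, 0.80, 0.66, 0.99 and 0.93. In the mid luteal biopsies of day 8, they were −0.57, −0.09, 0.07, −0.80 and −0.49. Each of these 3 days lay wholly below the one before it. For day 12, the values were −0.09, −0.57, −0.53, −0.01 and −1.14, and for day 16 they were 1.37, 1.05, 0.97, 2.51 and 0.44. Day 16 lay wholly above day 12, but its spread was wide, with mare 4 above every day 0 value and mare 5 within the range of day 3.

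Mean RND3 was 1.82 ± 0.35 on day 0, 0.74 ± 0.26 on day 3, −0.37 ± 0.36 on day 8, −0.47 ± 0.45 on day 12 and 1.27 ± 0.77 on day 16 (SD, n = 5 each). The day means spanned 2.29, or 4.90-fold, in the order 0, 16, 3, 8, 12 that MYH7 also showed. Day 3 was 2.11-fold below day 0 (−1.08 ± 0.29), and day 8 was 2.17-fold below day 3 (−1.12 ± 0.29), with 5 of 5 mares lower at both steps. Between day 12 and day 8 the difference of −0.10 ± 0.29 was within its error. Day 16 was 3.34-fold above day 12 (1.74 ± 0.29), in 5 of 5 mares. Day 0 and day 16 overlapped, with a difference of 0.55 ± 0.29. That overlap rests on the day 16 array of mare 4. The next highest day 16 value, 1.37, was below the lowest of day 0, 1.38. Without that array, 1 of the 2 least like their day, day 0 was above day 16 by 0.86 ± 0.25. Day 16 was then above day 12 by 1.43 ± 0.25. Only days 3 and 8 failed to overlap among neighbours in the order.

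MYH7 and RND3 shared their order of days but not their deviations within a day. After each day's mean was taken away, the Pearson correlation of the 2 genes over the 25 arrays was 0.05, and without the 2 arrays farthest from the median of MYH7 it was −0.04. Over the 10 pairs of the 5 genes, such correlations ran from −0.41 for MYH7 with TAGLN to 0.09 for RND3 with TAGLN. They are descriptions over arrays that share mares and slides. In mare 4 on day 3, where MYH7 stood 1.49 above the mean of its day, RND3 stood 0.25 above its own.

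TAGLN codes for transgelin, also called SM22-alpha, an actin cross-linking protein of smooth muscle and of activated fibroblasts. It had 1 probe, A_69_P001046, for NM_001110134, with signals of 189 to 2568. At day 0, TAGLN stood at −1.81, −1.88, −1.76, −1.06 and −1.88 in mares 1 to 5. On day 3, the levels were −1.23, −2.90, −2.52, −2.90 and −1.96. For day 8, they were −2.64, −2.01, −2.47, −2.92 and −1.42. On day 0 the mares lay close together apart from the higher mare 4, and days 3 and 8 were spread widely, with different mares high and low. At day 12, the mares had −1.65, −2.38, −2.07, −1.67 and −2.16. At day 16, they had −1.13, −0.34, 0.25, −0.53 and −0.87. All day 16 values lay above those of days 3, 8 and 12, and they met the day 0 values at 1 point, where mare 4 on day 0 stood above mare 1 on day 16.

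The TAGLN means were −1.68 ± 0.35 on day 0, −2.30 ± 0.71 on day 3, −2.29 ± 0.59 on day 8, −1.98 ± 0.32 on day 12 and −0.52 ± 0.53 on day 16 (SD, n = 5 each). The day means spanned 1.78, or 3.43-fold, in the order 16, 0, 12, 8, 3, and every pair of neighbours in that order overlapped. Day 16 was 2.75-fold above day 12 (1.46 ± 0.32), in 5 of 5 mares. Day 0 was 2.23-fold below day 16 (−1.16 ± 0.32), again in 5 of 5 mares. The difference of day 3 from day 0 was −0.62 ± 0.32 with 4 of 5 mares lower. Day 8 differed from day 3 by 0.01 ± 0.32, and day 12 from day 8 by 0.31 ± 0.32.

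None of the 28 genes listed for the smooth muscle contractile apparatus, among them the actins, calponins and myosin that TAGLN accompanies in that tissue, had a named probe. The same held for the smooth muscle and pericyte markers, so these were not analysed here. The part of muscle cells in the TAGLN values was not tested.

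S100A6, also called calcyclin, belongs to the S100 family of small calcium sensors, whose members bind annexins and cytoskeletal proteins. Its 5 probes (A_69_P001081 to A_69_P001085, for NM_001081841) had a lowest correlation with each other of 0.985. On A_69_P001082 and A_69_P001083 the day 0 spots of mares 2 and 3 were marked as outliers by the scanner software and left out. The chosen probe, A_69_P001085, had a value on all arrays. At day 0, S100A6 stood at 4.35, 4.93, 4.77, 4.56 and 5.88 in mares 1 to 5. In the early luteal biopsies of day 3, it stood at 4.35, 4.01, 3.996, 4.32 and 5.22. Mare 5 stood well above the other mares on both days. The levels on day 8 were 4.97, 5.09, 5.11, 4.89 and 5.10. Those of day 12 were 4.75, 5.40, 5.44, 5.14 and 5.18, and those of day 16 were 5.30, 5.88, 5.93, 6.37 and 6.90. The 5 mares were nearly level on day 8 and widest apart on day 16, where mare 5 was again the highest and mare 1 the lowest.

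Mean S100A6 was 4.90 ± 0.59 on day 0, 4.38 ± 0.50 on day 3, 5.03 ± 0.10 on day 8, 5.18 ± 0.28 on day 12 and 6.08 ± 0.60 on day 16 (SD, n = 5 each). The day means spanned 1.70, or 3.25-fold, in the order 16, 12, 8, 0, 3, and neighbours in that order overlapped throughout. Day 3 was below day 0 by 0.52 (−0.52 ± 0.28), with mare 1 nearly level and the other 4 lower. Without the day 0 array of mare 5 that difference was −0.27. Day 8 was above day 3 by 0.65 ± 0.28 in 4 of 5. Day 12 and day 8 differed by 0.15 ± 0.28. Day 16 was 1.86-fold above day 12 (0.90 ± 0.28) in 5 of 5 mares. The groups overlapped on the chosen probe, because mare 1 on day 16 stood below mares 2 and 3 on day 12, and did not overlap on the other 4 probes, where the difference was 1.0004 to 1.08. Day 0 was 2.27-fold below day 16 (−1.18 ± 0.28), in 5 of 5 mares.

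GSN, gelsolin, cuts actin filaments and caps their ends when calcium rises. Its 2 probes (A_69_P004116 and A_69_P000386, for NM_001081953) correlated at 0.990, and the first had signals of 4908 to 60658. At day 0, GSN stood at 3.75, 2.96, 2.93, 2.50 and 2.84 in mares 1 to 5. Day 3 gave 3.40, 3.25, 3.39, 2.86 and 2.67. Day 8 gave 3.92, 3.102, 2.44, 2.87 and 3.19. These 3 days overlapped one another, with mare 1 highest on each. Day 12 gave 4.95, 4.76, 4.58, 4.81 and 4.39, above every value of the other 4 days. Day 16 gave 3.41, 3.51, 3.58, 3.46 and 4.17, with mare 5 apart from the other mares.

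Mean GSN was 3.00 ± 0.46 on day 0, 3.12 ± 0.33 on day 3, 3.105 ± 0.54 on day 8, 4.70 ± 0.22 on day 12 and 3.62 ± 0.31 on day 16 (SD, n = 5 each). The means spanned 1.70, or 3.25-fold, in the order 12, 16, 3, 8, 0. Of the neighbours in that order days 12 and 16 lay apart, the lowest day 16 value and the highest day 3 value were 3.41 and 3.40, and days 3, 8 and 0 overlapped. Day 12 was 3.01-fold above day 8 (1.59 ± 0.25) in 5 of 5 mares, and day 16 was 2.10-fold below day 12 (−1.07 ± 0.25) in 5 of 5 mares. The differences at the earlier steps were 0.12 ± 0.25 for day 3 against day 0 and −0.01 ± 0.25 for day 8 against day 3. Day 0 was below day 16 by 0.63 (−0.63 ± 0.25), with 4 of 5 mares lower. The second probe gave 1.60 ± 0.27 for day 12 against day 8 and −1.15 ± 0.27 for day 16 against day 12.

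**Figure D2:**
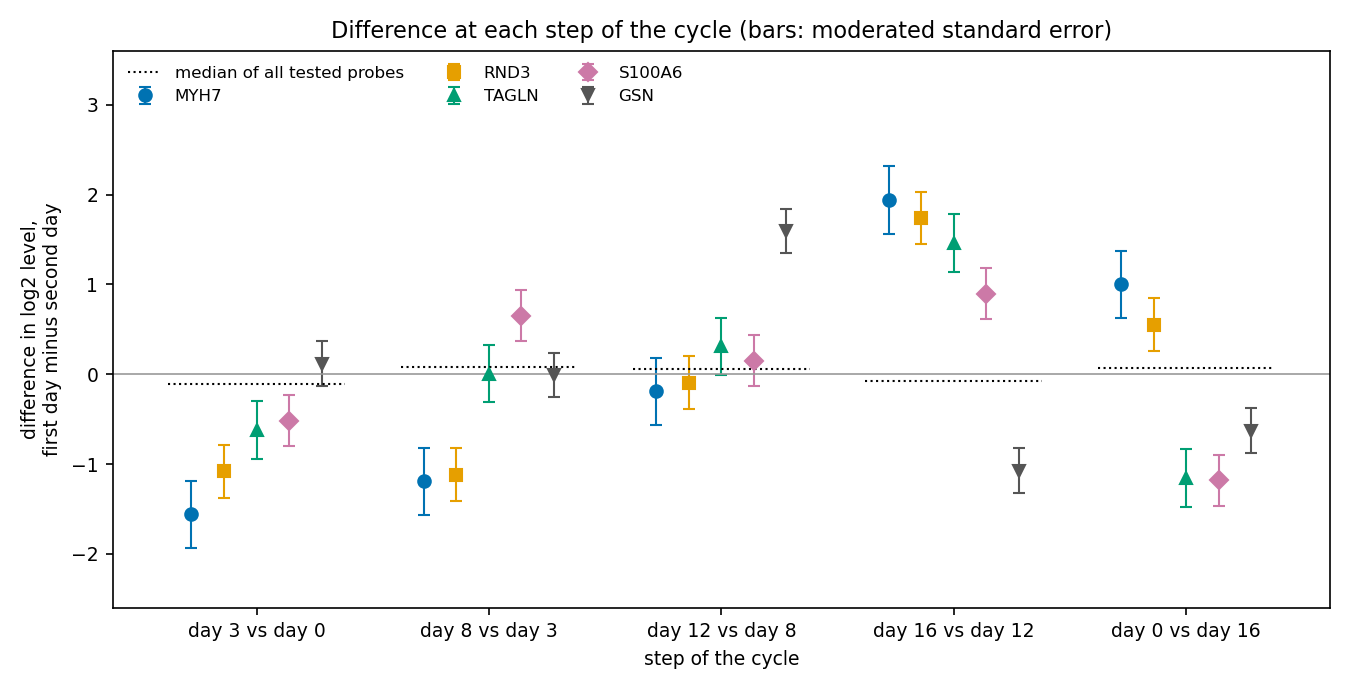
Difference in log2 level at each step of the cycle, first day named minus second day named, for MYH7, RND3, TAGLN, S100A6 and GSN, with moderated standard errors as bars and the median of all tested probes as dotted lines. On day 12 against day 8, GSN alone of the 5 lies far from 0, at 1.59, and on day 16 against day 12 it is the gene below 0, at −1.07, while the other 4 lie between 0.90 and 1.94.

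How common such differences were among all probes is set beside the 5 genes, without reading anything from it, since the genes were chosen for them. With limma and a Benjamini-Hochberg adjusted p under 0.05 as the call, 0 of 5 were called higher and 2 of 5 lower on day 3 than on day 0, where 7.01% of the 35771 tested probes were called higher and 5.66% lower. On day 8 against day 3, 0 of 5 were called higher (6.05% of all probes) and 2 of 5 lower (7.72%). At day 12 against day 8, the call fell on 1 of 5 in the higher direction (0.626%) and 0 of 5 in the lower (0.470%). At day 16 against day 12, 3 of 5 were called higher (3.86%) and 1 of 5 lower (4.22%). These counts depend on the probe taken, since S100A6 was called higher at that step on its other 4 probes, and MYH7 was called lower on day 8 against day 3 on 2 of its 3 probes. For day 0 against day 16, it was 0 of 5 higher (2.30%) and 2 of 5 lower (2.41%). The values of the 2 days did not overlap for 1 of 5 genes between day 3 and day 0 (7.80% of all probes), 2 of 5 between day 8 and day 3 (14.2%) and 1 of 5 between day 12 and day 8 (9.54%). Between day 16 and day 12 it was 4 of 5 (6.56%), and between day 0 and day 16 it was 0 of 5 (3.49%). The median difference over all tested probes lay between −0.11 and 0.08 at these steps.

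The 25 arrays lay on 7 slides, scanned on 4 days. Day 0 had no array on slides 1 to 3, which were scanned before the others, and every other day did. Differences from day 0 are thus partly mixed with slide and scan day. For each step, 3 or 4 slides held both days. Each of them held 1 array of either day, so every difference within a slide is 1 array against 1 array. The 2 arrays came from the same mare, except on slide 6, where they came from different mares. Most of these differences are thus those of single mares already counted above. Within each of the 3 slides with days 12 and 16, day 16 was above day 12 for MYH7 (1.89 to 3.12), RND3 (1.46 to 2.52), TAGLN (0.52 to 2.31) and S100A6 (0.49 to 1.24). GSN was above day 8 on day 12 within 3 of 3 slides (1.03 to 2.14) and below day 12 on day 16 within 3 of 3 (−1.54 to −0.997). The lower level of RND3 on day 3 than on day 0 was present within 3 of 3 slides (−1.34 to −0.97). For MYH7 that step was lower within 2 of 3 slides, at −3.13 and −1.82, and higher by 0.55 on the slide that held mare 4 on both days. On day 8 against day 3, MYH7 (−1.22 to −0.33) and RND3 (−1.46 to −0.89) were lower within 4 of 4 slides. TAGLN (−1.47 to −0.54) and S100A6 (−1.82 to −1.02) were lower on day 0 than on day 16 within 3 of 3 slides.

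The spread between mares was not the same on all days. On day 8 the SD was 0.15 for MYH7 and 0.10 for S100A6, whereas on day 3 it was 0.90 for MYH7 and on day 16 it was 0.60 for S100A6. Day 8 was also the most even day for the array as a whole, with a median SD of 0.29 over the tested probes, compared with 0.44 on day 0, 0.45 on day 3, 0.35 on day 12 and 0.51 on day 16. On day 8, 15.4% of the tested probes had a smaller SD than the chosen probe of MYH7 and 4.32% a smaller one than that of S100A6. RND3, TAGLN and GSN did not share this, since 61.5%, 80.0% and 77.5% of the probes had a smaller SD than theirs on that day. These shares depend on the probe taken. On the other probes the day 8 SD was 0.12 and 0.08 for MYH7 and 0.07 to 0.18 for S100A6. Differences in spread between days were not tested.

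**Figure D3:**
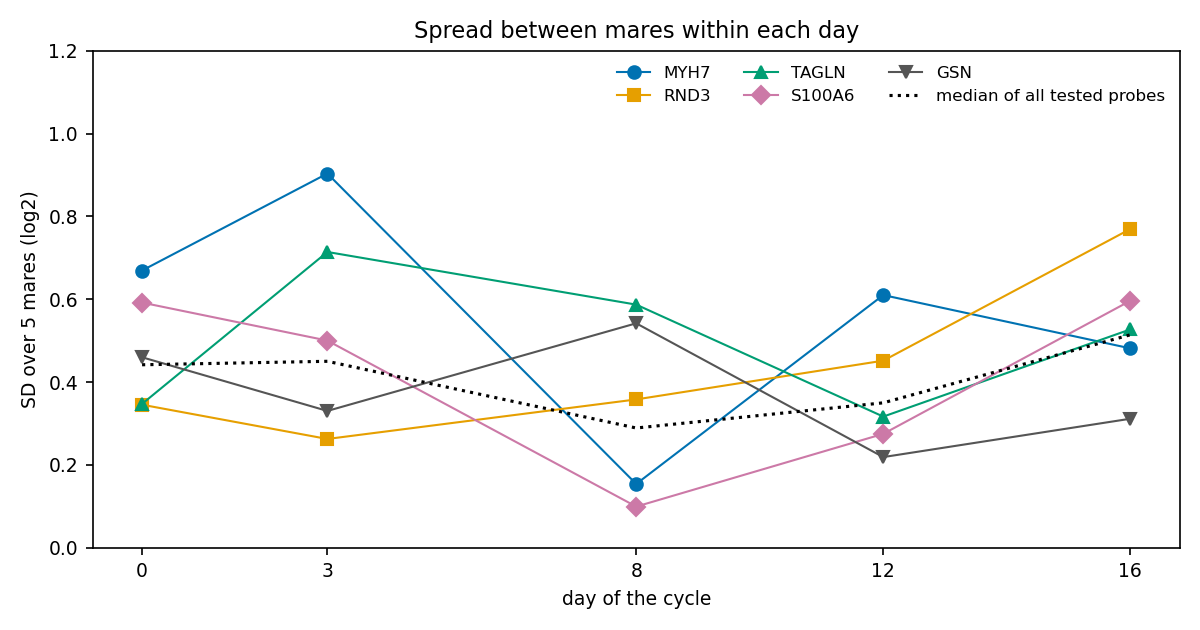
SD of the log2 level over 5 mares on each day of the cycle, 1 line per gene, with the median SD of all tested probes as a dotted line. MYH7 and S100A6 reach their lowest SD on day 8, at 0.15 and 0.10, and RND3 has its highest on day 16, at 0.77.

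Each mare was sampled on every day, so mare and day can be separated in the model. The genes were chosen on these same arrays, and the spread between mares may have had a part in that choice. The count set against all probes is therefore not an independent comparison. In limma's moderated F test between mares with the day in the model, adjusted over all tested probes, 0 of the 5 chosen probes passed, against 12.9% of all tested probes. At an unadjusted p under 0.05, 1 of the 5 chosen probes did, that of S100A6, and the share of all probes at that threshold is not given here. That count depends on the probe taken, since the other GSN probe, A_69_P000386, also fell under the unadjusted threshold. S100A6 came nearest, with an adjusted p of 0.0650, and its 5 probes had adjusted p of 0.0493 to 0.0769, of which 1 passed, A_69_P001082, which lacked the day 0 spots of mares 2 and 3. When 1 array was left out, the adjusted p of the chosen probe ran from 0.0332 without mare 5 on day 12 to 0.189 without mare 5 on day 0, and it was 0.0444 without mare 5 on day 8. On that probe, mare 5 was above the mean of the day by 0.54 on average, by 0.99 on day 0, 0.84 on day 3 and 0.82 on day 16, and nearly level with it on days 8 and 12. Mare 1 was below the mean of the day by 0.37 on average (−0.37), and nearly level with it on days 3 and 8. On 3 of the other 4 probes mare 1 was above the mean on 1 or 2 days. The adjusted p was 0.291 for GSN, 0.386 for RND3, 0.891 for MYH7 and 0.966 for TAGLN. A high p does not show that the mares were alike. With the slide added to the model, S100A6 had an adjusted p of 0.996. Mare and slide are partly the same grouping here, since arrays of 1 mare often shared a slide, and their parts cannot be told apart.

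**Figure D4:**
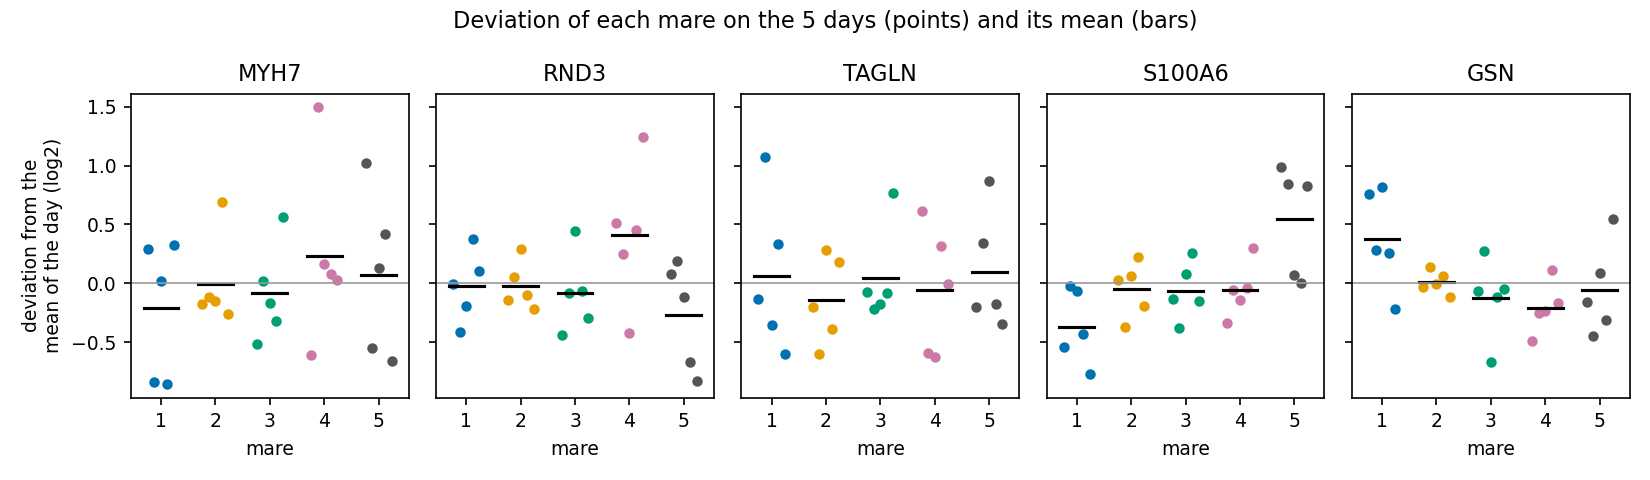
Deviation of each array from the mean of its day (log2) for each mare, with 5 points per mare, in the order of the days, and their mean as a bar. For S100A6, mare 5 lies well above 0 on days 0, 3 and 16 and close to 0 on days 8 and 12, with a mean of 0.54, and mare 1 has a mean of −0.37. For MYH7, RND3, TAGLN and GSN each mare has points on both sides of 0.

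To place the 5 genes among other cytoskeletal genes, 224 genes on 7 lists were looked up, of which 16 had a named probe and 12 were bright enough to test. By the F test over the 5 days, 6 of the 12 passed, against 35.8% of all tested probes. They were TMSB10, PLS3, ANXA1, S100G, LMNA and TNNI3. The number that passed was 4 to 8 under the alternative settings and 5 to 7 when 1 array was left out. The other 6 were ACTB, TPM3, CAPZA2, COTL1, CAP1 and ANXA2, and the cytoplasmic actin ACTB had an adjusted p of 0.654. By step, the test called 0 of 12 higher and 2 lower on day 3 against day 0, 1 higher and 0 lower on day 8 against day 3, 0 in either direction on day 12 against day 8, 2 higher and 0 lower on day 16 against day 12, and 0 in either direction on day 0 against day 16. At an unadjusted p under 0.05 there were 4, 3, 3, 4 and 2 of 12 at these 5 steps in that order. The share of all probes at that threshold is not given here. The median difference over the 12 genes was −0.04, −0.26, 0.04, 0.14 and 0.08 at the 5 steps in that order.

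Among the proteins that control actin filaments, TMSB10, a beta-thymosin that binds actin monomers, fell by 1.10 on day 3 against day 0 (−1.10 ± 0.27, limma adjusted p = 0.0104) and rose by 0.91 ± 0.27 on day 16 against day 12 (adjusted p = 0.0368), a call that was lost in 6 of the 25 fits that left out 1 array (those of mares 2, 3 and 4 on day 16, adjusted p 0.0617 to 0.0864, and of mares 1, 2 and 4 on day 12, 0.0624 to 0.1195). Its means were 5.95 ± 0.55 on day 0, 4.85 ± 0.50 on day 3, 4.61 ± 0.27 on day 8, 4.39 ± 0.52 on day 12 and 5.30 ± 0.20 on day 16 (SD over 5 mares). PLS3, plastin, which bundles actin filaments, rose by 1.10 ± 0.29 on day 8 against day 3 (adjusted p = 0.0119). PLS3 stood at 3.73 ± 0.16 on day 8 and 2.64 ± 0.54 on day 3. The test called PLS3 at no other step, and its day 16 values ran from 2.46 to 4.26. With the mare as a block, TPM3, a tropomyosin that winds along the filament, also passed on day 8 against day 3, at −0.45 ± 0.13 with an adjusted p of 0.0254, which made 2 of 12. With the same block ANXA2 passed on day 16 against day 12, at 0.58 ± 0.18 with an adjusted p of 0.0447, which made 3 of 12.

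On the list of S100 proteins and annexins, the annexin ANXA1, which binds membranes in the presence of calcium, fell by 1.06 on day 3 against day 0 (−1.06 ± 0.23, adjusted p = 0.00429). It rose by 0.73 ± 0.23 on day 16 against day 12 (adjusted p = 0.0489), a call that was lost in 19 of the 25 fits that left out 1 array, at adjusted p up to 0.119. Its means were 4.37 ± 0.31 on day 0, 3.30 ± 0.42 on day 3, 3.40 ± 0.29 on day 8, 3.89 ± 0.29 on day 12 and 4.62 ± 0.42 on day 16. S100G, a calcium-binding protein of the same family as S100A6, passed over the days (adjusted p = 0.00312) without a called step. S100G had its highest mean on day 3, at −0.52 ± 1.29, and its lowest on day 16, at −2.87 ± 0.42, whereas S100A6 had its lowest mean on day 3 and its highest on day 16. LMNA, which codes for lamins of the nuclear envelope, had its lowest mean on day 8, at 1.27 ± 0.08, and stood at 2.24 ± 0.41 on day 0 and 2.30 ± 0.58 on day 16 (adjusted p over the days 0.00588). TNNI3 had an adjusted p over the days of 0.0279, with its highest mean on day 0, at −3.51 ± 0.65, and its lowest on day 8, at −4.51 ± 0.36. With normexp background correction none of the step calls of TMSB10, PLS3 and ANXA1 was kept (adjusted p 0.223 to 0.701), at differences of −1.0989 and 0.88 for TMSB10, −1.05 and 0.69 for ANXA1 and 0.64 for PLS3. With mare and slide both as blocks PLS3 (0.0853) and both steps of ANXA1 (0.0789 and 0.0936) were no longer called, and with the array signal level as a covariate TMSB10 on day 3 against day 0 (0.0627) and ANXA1 on day 16 against day 12 (0.0535) were not. In fits of the 2 compared days alone, both steps of TMSB10 (0.0750 and 0.0707) and day 16 against day 12 for ANXA1 (0.125) were lost. ANXA1 at that step was also lost with no filter on dim probes (0.0656), and TMSB10 at that step without the 2 arrays least like their day (0.101).

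**Figure D5:**
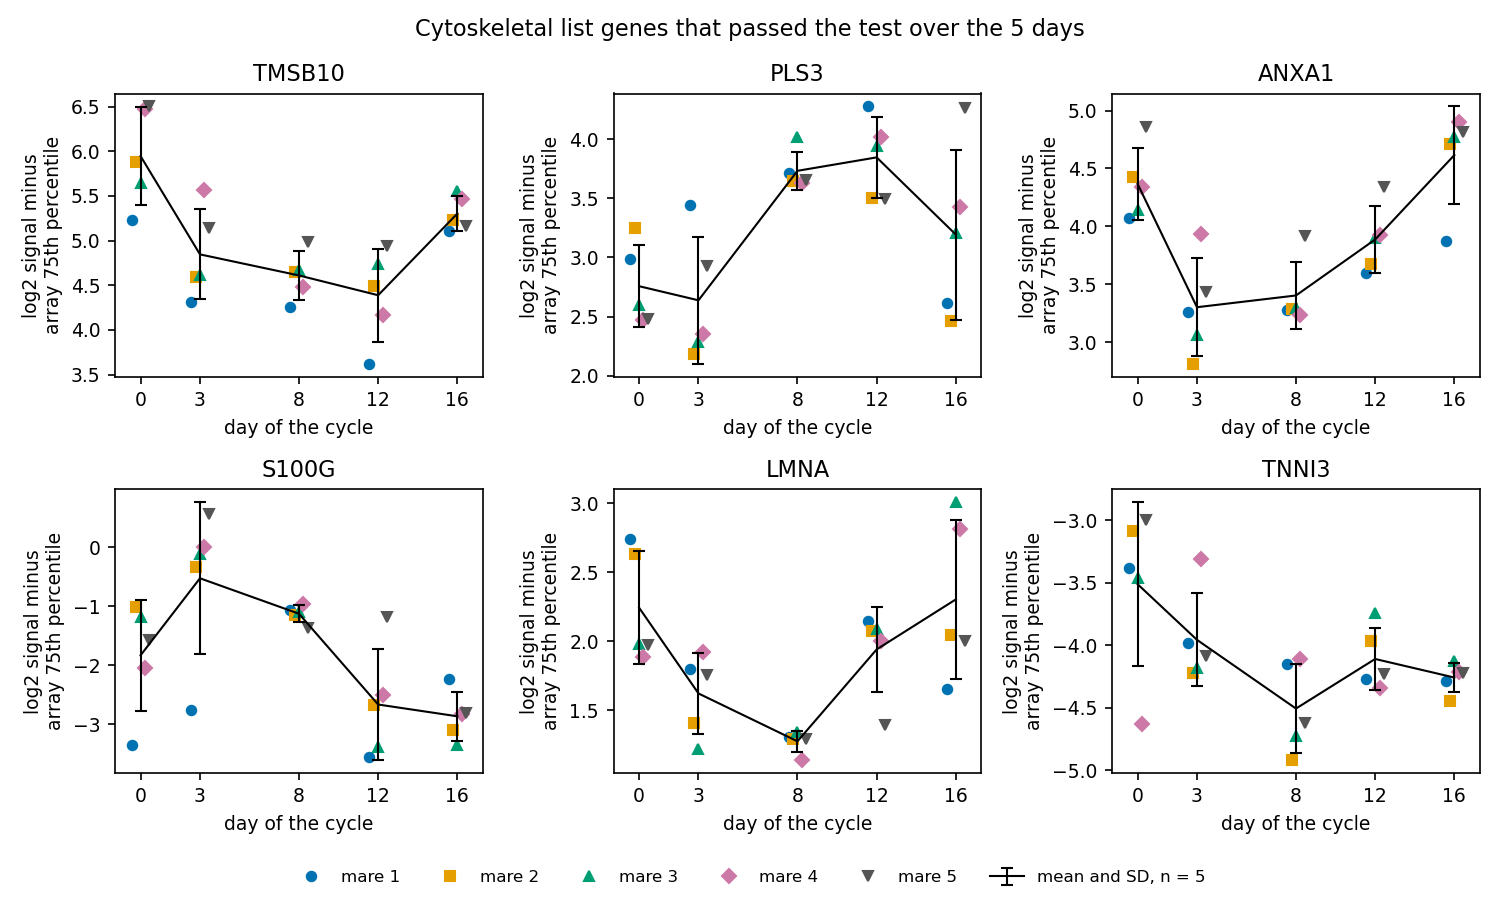
Level (log2 signal minus the 75th percentile of the array) of TMSB10, PLS3, ANXA1, S100G, LMNA and TNNI3, the 6 listed cytoskeletal and calcium-binding genes that passed the test over the days, against the day of the cycle, with 1 point per mare and the mean and SD of 5 mares. TMSB10 and ANXA1 are high on days 0 and 16, PLS3 is high on days 8 and 12, and S100G is highest on day 3.

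Markers of other cells moved with some of these steps. The 2 measured stromal fibroblast markers of 8 listed, LUM and DCN, had a summed signal of 29.8 to 44.7 times the array's 75th percentile on day 0, 8.63 to 25.1 on day 3, 11.8 to 16.1 on day 8, 12.6 to 20.04 on day 12 and 18.2 to 36.9 on day 16. Like MYH7 and RND3, the sum was high on days 0 and 16 and low on days 8 and 12. On day 8 against day 3, where MYH7 and RND3 were lower, neither marker was called. LUM differed there by 0.02 ± 0.35 (limma adjusted p = 0.979) and DCN by −0.33 ± 0.26 (adjusted p = 0.455). LUM fell by 1.32 on day 3 against day 0 (−1.32 ± 0.35, adjusted p = 0.0162) and rose by 1.64 ± 0.35 on day 16 against day 12 (adjusted p = 0.00399). DCN fell by 1.09 on day 3 against day 0 (−1.09 ± 0.26, adjusted p = 0.00885) and was not called on day 16 against day 12 (0.65 ± 0.26, adjusted p = 0.148). The 1 measured epithelial marker of 8, ESRP1, ranged from 5.85 to 12.6 on day 0 and from 6.32 to 10.2 on day 16, and its adjusted p over the days was 0.621. The 1 measured endothelial marker of 6, PECAM1, ranged from 1.42 to 2.14 on day 12 and from 0.855 to 1.22 on day 8, the step at which GSN was higher. PECAM1 passed over the days (adjusted p = 0.0308) without a called step. The 5 measured leukocyte markers of 8 summed to 2.39 to 6.76 on day 0, 3.14 to 4.42 on day 3, 3.08 to 4.64 on day 8, 4.55 to 6.06 on day 12 and 3.73 to 8.98 on day 16. Of these 5, GNLY, a granule protein of cytotoxic cells, fell by 0.97 on day 3 against day 0 (−0.97 ± 0.27, adjusted p = 0.0205), the step at which MYH7 and RND3 were lower. GNLY rose by 1.23 ± 0.27 on day 12 against day 8 (adjusted p = 0.0293). CD14, a monocyte marker, passed over the days (adjusted p = 0.00616) without a called step. CD2, CD68 and CD74 passed neither over the days nor at a step. On day 3 against day 0, CD2 differed by 0.01 ± 0.24, CD74 by −0.11 ± 0.40, CD14 by −0.29 ± 0.27 and CD68 by −1.03 ± 0.35. On day 12 against day 8, CD74 differed by −0.24 ± 0.40, CD2 by 0.13 ± 0.24, CD68 by 0.20 ± 0.35 and CD14 by 1.09 ± 0.27. The ciliated cell marker DYDC1, 1 of 6, stayed at or under 0.0261 on every array. What part these cells had in the levels of the 5 genes was not tested.

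Genes whose levels ran most like each of the 5 over the 25 arrays were sought among the 509 other named genes that were tested. These correlations are descriptions over arrays that share the same days. For MYH7 they were CACNB3, a calcium channel subunit (Pearson r = 0.900), SCX, a transcription factor of tendon (0.893), and PPIP5K2, an inositol phosphate kinase (0.868). The gene that ran most nearly opposite was P19, which codes for uterocalin, a lipid-binding protein of uterine secretion (−0.868). P19 had its lowest mean on day 0, at 3.65 ± 0.66, and its highest on day 8, at 7.74 ± 0.17.

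RND3 ran most like SPRED1, an inhibitor of Ras signalling (0.891), USP32, a ubiquitin protease (0.883), and CD44, the hyaluronan receptor (0.868). It ran opposite to CTTNBP2, a cortactin-binding protein (−0.881), which stood at 2.95 ± 0.28 on day 8 and 3.11 ± 0.19 on day 12, compared with 0.28 ± 0.17 on day 0. No gene was among the nearest 3 of both MYH7 and RND3.

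For TAGLN the nearest genes were TIMP1, an inhibitor of matrix proteases (0.756), ANXA1 (0.697) and SPI2 (0.685), and the most nearly opposite was FST, follistatin, which binds activin (−0.733). TIMP1 had its highest mean on day 16, at 2.47 ± 0.98. S100A6 ran most like ANXA2, another annexin (0.775), MET, the receptor of hepatocyte growth factor (0.774), and KLF10, a transcription factor (0.762), and opposite to RAVER1 (−0.781). GSN ran most like UBE2B, a ubiquitin-conjugating enzyme (0.784), FIBIN (0.754) and AKR1C1, an aldo-keto reductase (0.698). Their means were highest on day 12 for UBE2B, at −1.98 ± 0.13, for FIBIN, at −1.43 ± 0.57, and for AKR1C1, at −3.096 ± 0.83. The imprinted RNA H19 ran opposite to GSN (−0.726) and was lowest on day 12, at 0.01 ± 0.58, and highest on day 0, at 2.16 ± 0.51.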

How the data were processed

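RNA of 25 biopsies was hybridised to one-colour Agilent arrays. Per the submitters' processing notes, Agilent Feature Extraction 10.7.3.1 read the scans. Per the file headers, the deposited intensities are processed signals, with background subtracted and spatial trends removed by that software. No normalization between arrays is recorded, and the deposited value table held the same signals for all 25 arrays. Any change in total RNA per cell would not be seen.

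From these intensities, log2 values minus the 75th percentile of each array were computed over noncontrol probes. Spots marked as outliers were left out and repeated spots of a probe averaged. The tested probes, 35771 of 43603, had to be well above background in at least 4 of 5 mares on 1 or more days. Differences were fitted with limma 3.58.1 in R 4.3.3, with the day as the term over all 25 arrays, moderated standard errors and Benjamini-Hochberg adjustment within each comparison over all tested probes. All tests are two-sided, and an adjusted p under 0.05 is a call. The mares were compared by an F test in a model with day and mare. The fits were tested on simulated data. Python 3.11.15 with pandas 2.3.3 and numpy 2.4.6 made the tables, and matplotlib 3.10.9 drew the figures. The number of arrays limits the precision.

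Gene names came from a RefSeq table of the assembly TB-T2T, matched by transcript accession, which named 1307 probes of 620 genes. Another 32565 probes carry Ensembl transcript names and were given no symbol here. The arrays predate that assembly, so no positions are given, and no sequences were used here. Of a gene with several probes, the tested probe with the highest mean signal was taken. All probes of the 5 genes are described. List and marker genes that passed the F test or a step are named, up to 4 per list, and others are counted, with a few named beside them. For each gene the 3 named genes with the highest and the 1 with the lowest correlation over the arrays are given, without symbols made of LOC and a number. The members and the lists were chosen with earlier results of these data known.

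The labels give the mare of each biopsy, so the biopsies are paired by mare. The fit described above has no mare term, and the paired fit, with the mare as a block, was an alternative. With each day's mean taken away, the median correlation between arrays was 0.245 over 50 pairs from 1 mare, −0.047 over 200 pairs from different mares and 0.120 over the 26 pairs of 1 mare that lay on different slides. As alternatives, results were recomputed with quantile normalization, normexp correction with an offset of 50, other filters on dim probes, blocks for mare and slide, fits of the 2 compared days alone, an intensity trend, other probes of a gene and leaving out each array. Chosen after seeing the data were 3 more, namely normexp after replacing marked backgrounds, a covariate for the signal level of the array, and dropping the 2 arrays least like their day.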

Additional observations from a re-analysis of the deposited data

Results flagged for a closer look

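Of the 25 sets of 5 values, 1 for each gene and day, 2 held a value far from the other mares. A rule of this kind marks about 1 in 20 sets by chance. On day 0, mare 4 stood at −1.06 for TAGLN, with the next highest mare at −1.76. On day 16, mare 5 stood at 4.17 for GSN, with the next highest mare at 3.58.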

How the results depend on the processing

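The differences of the 5 genes between days were recomputed under each alternative. Many of these values could not move, because some alternatives return the same difference by construction. The filters on dim probes, the intensity trend, the fit of the 2 compared days alone and the mare block do so. So does leaving out an array of another day. Of all the recomputed values, 971, which include these, moved by less than the spread between mares, 4 moved by more, and 0 called differences reversed. The genes were chosen by these differences, so that count is no independent support for them. The 4 were S100A6 on day 8 against day 3 (0.11 with normexp), S100A6 on day 12 against day 8 (0.36 with quantile normalization and 0.68 with normexp) and GSN on day 12 against day 8 (2.08 with normexp). The planned normexp met local backgrounds of up to 772899 on the day 8 array of mare 2, against at most 251 on the others, and with these replaced the 3 normexp values moved by less than that spread. With mare as a replicate block, the paired fit, MYH7 on day 16 against day 12 was at 1.94 by construction, with an SE of 0.39.

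The calls among the 12 list genes changed with the settings, and the causes were not tested. On day 3 against day 0 (2 called), normexp gave 0, and mare as a replicate block with slide as a block, the signal covariate and only the 2 days compared gave 1 each. On day 8 against day 3 (1 called), quantile normalization and mare as a replicate block gave 2, and normexp and mare with slide gave 0. On day 12 against day 8 (0 called), slide as a block gave 1 and only the 2 days compared gave 2. On day 16 against day 12 (2 called), normexp and only the 2 days compared gave 0. No filter on dim probes, mare with slide, the signal covariate and leaving out the 2 arrays least like their day (mares 1 and 4 on day 16) gave 1. Leaving out 1 array gave 0 to 2 there, and 0 to 1 on day 0 against day 16 (0 called), where normexp with backgrounds replaced gave 1. With mare as a replicate block the count on day 16 against day 12 was 3, with ANXA2 gained, and no other count changed by over 1.5 times. Between mares, 0 of the 5 genes was called, 1 with an intensity trend (S100A6, adjusted p 0.0471) and 0 to 1 when 1 array was left out. The deposited value table, equal to the scanner values, gave no other value. Probes near background were not tested.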
